A study of Mus musculus with 2 samples.

Results

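Glycolysis splits glucose into pyruvate in the cytosol, with a net gain of ATP, and the genes described here encode 1 enzyme for each of its 10 steps: Hk1, Gpi1, Pfkl, Aldoa, Tpi1, Gapdh, Pgk1, Pgam1, Eno1 and Pkm. They were chosen by name, and every transcript model that the deposited tables put to one of these names was taken, which gave 232 of 107755 models in replicate 1 and 252 of 137106 in replicate 2, in 10 of 18580 annotated genes with reads. The data are long-read RNA sequencing of the adrenal gland taken at 10 days of age from male mice of the hybrid strain B6CASTF1/J, with 1 group of 2 libraries and no treatment or genotype to compare. Replicate 1 held 927914 reads on annotated genes and replicate 2 held 1303420. The labels number them as biological replicates, but 1 field gives the males different numbers while another gives both the same. The donor entry is also shared, so separate animals are not certain. The p-values set differences between these 2 samples against counting error only, and the spread between animals is not estimated.

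The pathway runs in 2 stages, first using ATP to charge the sugar with phosphate (hexokinase, phosphofructokinase) and then, after aldolase has split it, returning ATP at phosphoglycerate kinase and pyruvate kinase. Several steps have isoenzymes from separate genes that differ between tissues, such as enolase 3 and phosphoglycerate mutase 2 in skeletal muscle. Pyruvate kinase has a further choice within 1 gene: Pkm carries 2 mutually exclusive exons, and a transcript with exon 9 encodes PKM1, the form of muscle and brain, while one with exon 10 encodes PKM2, the form of proliferating and many other cells, which fructose-1,6-bisphosphate activates. A long read can run through the whole transcript, and one that crosses this stretch shows directly which exon it carries.

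These are the 2 exons that set the forms of Pkm, from the GENCODE M21 transcripts (build mm10, plus strand), 5′ to 3′. Capitals mark the positions at which they differ, 64 of 167, and lower case the 103 positions that are equal (61.7%). Exon 9 of Pkm-202 lies at chr9:59675029-59675195 and exon 10 of Pkm-201 at chr9:59675568-59675734.
exon 9: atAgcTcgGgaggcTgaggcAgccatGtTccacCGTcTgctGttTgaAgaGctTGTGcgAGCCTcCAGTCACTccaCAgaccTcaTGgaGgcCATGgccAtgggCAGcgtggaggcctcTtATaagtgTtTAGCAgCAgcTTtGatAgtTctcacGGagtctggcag
exon 10: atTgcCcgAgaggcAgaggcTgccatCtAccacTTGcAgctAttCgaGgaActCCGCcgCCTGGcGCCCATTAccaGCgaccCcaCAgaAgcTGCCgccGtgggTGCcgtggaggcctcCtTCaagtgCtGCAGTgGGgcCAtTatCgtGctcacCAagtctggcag

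Both forms of Pkm were read in the adrenal gland samples, and exon 10 was the more frequent in both libraries. In replicate 1, 250 reads held exon 9 and 1034 held exon 10. In replicate 2, 266 reads held exon 9 and 880 held exon 10. Exon 9 thus took 19.5% of the informative reads in replicate 1 (Clopper-Pearson 95% interval 17.3 to 21.7%) and 23.2% in replicate 2 (20.8 to 25.8%), a mean of 21.3 ± 2.65% (SD, n = 2). The difference of 3.74 percentage points had p = 0.0254 in a two-sided Fisher's exact test, with an odds ratio of 1.25 (1.02 to 1.53), and the 2 intervals overlap. With annotated transcripts alone the shares were 19.0% and 22.3% and Fisher's exact test gave p = 0.0656, so the call does not hold there. The level of reads with exon 9 was 269 and 204 CPM (reads per 1000000 reads on annotated genes) in replicates 1 and 2, and that of reads with exon 10 was 1114 and 675 CPM. The samples also held reads of markers of other tissues (described below), such as 8 skeletal muscle markers with 1113 and 3435 CPM in sum. The exon shares are therefore those of the whole samples, and the part of other tissues in them was not tested.

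Most Pkm reads held exactly 1 of the 2 exons whole, 1284 of 1309 in replicate 1 and 1146 of 1186 in replicate 2. These are the informative reads. Reads with both exons whole numbered 4 in replicate 1 and 3 in replicate 2, and reads that joined exon 8 straight to exon 11 numbered 1 and 0. Counting any overlap with an exon, 13 and 15 reads touched both. A further 20 of 1309 and 37 of 1186 Pkm reads held neither exon whole and gave no answer. Among the models that start inside the annotated transcript (incomplete splice matches, described below), exon 9 took 25.6% of reads in replicate 1 (21 of 82; 16.6 to 36.4%) and 34.5% in replicate 2 (39 of 113; 25.8 to 44.0%). Among the annotated transcripts the intervals were 16.7 to 21.4% and 19.7 to 25.0%, which overlap those of the incomplete models in replicate 1 but not in replicate 2. Models with an unannotated splice site held exon 9 in 4 of 43 reads (9.30%, 2.59 to 22.1%) and 5 of 42 (11.9%, 3.98 to 25.6%), and these intervals overlap those of the annotated transcripts. New combinations of annotated splice sites held it in 9 of 21 reads in replicate 1 (42.9%, 21.8 to 66.0%), above the interval of the annotated transcripts, and in 6 of 22 in replicate 2 (27.3%, 10.7 to 50.2%), which overlaps it.

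**Figure D1:**
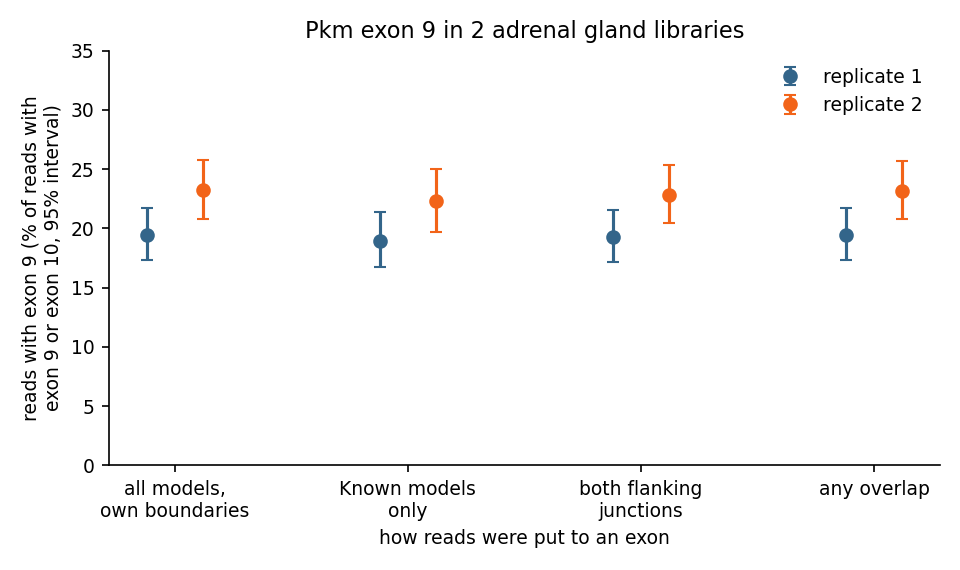
Share of Pkm reads with exon 9 among reads with exon 9 or exon 10 (%, vertical axis) in replicates 1 and 2, for 4 ways of putting reads to an exon (horizontal axis), with Clopper-Pearson 95% intervals as bars. With all models and the exons' own boundaries the shares are 19.5% and 23.2%, and replicate 2 lies above replicate 1 in each of the 4 ways, with overlapping intervals.

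The RNA-binding proteins known, mainly from human cells, to set this choice were themselves measured. Ptbp1, Hnrnpa1 and Hnrnpa2b1, whose human counterparts repress exon 9, had 123 and 75.2 CPM, 333 and 201 CPM, and 830 and 572 CPM in replicates 1 and 2. Srsf3, which in human cells favours exon 10, had 319 and 178 CPM. These 4 of the 6 listed were lower in replicate 2, where 22.2% of all tested genes were lower and 13.0% higher (adjusted p = 0.00187, 2.40e-08, 8.70e-12 and 4.28e-10, in that order; Fisher's exact test with Benjamini-Hochberg adjustment over 11650 genes; at least 10 reads in all were needed), and Ptbp1 did not pass after TMM scaling (adjusted p = 0.0837) or against the ratio expected from its length (0.451). Rbm4, which in human cells favours exon 9, had 28.0 and 34.5 CPM and did not pass, nor did Ptbp2, the neuronal relative of Ptbp1, at 21.6 and 12.3 CPM. Whether these levels have a part in the exon shares was not tested.

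The levels of the 10 genes lay far apart. A long read is counted once whatever the length of its transcript, so the levels are not divided by length. Recovery of transcripts of different lengths differed between the libraries (described below), so the order of genes of unlike length carries that uncertainty. Together the 10 genes took 10654 CPM in replicate 1 and 7625 CPM in replicate 2 (9139 ± 2142 CPM, SD, n = 2). Aldoa, which splits fructose-1,6-bisphosphate into 2 triose phosphates, stood above the rest with 3687 CPM in replicate 1 (exact Poisson 95% interval 3564 to 3812) and 2628 in replicate 2 (2540.4 to 2717), rank 18 among all genes. The gene (ENSMUSG00000030695.16) lies on the minus strand at chr7:126795234-126800751.

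The enzymes of the last steps followed. Pkm, the pyruvate kinase gene (ENSMUSG00000032294.17) at chr9:59656368-59679375 on the plus strand, had 1411 and 909.9 CPM. Eno1, the enolase that makes phosphoenolpyruvate (ENSMUSG00000063524.13), at chr4:150236721-150248879 on the plus strand, had 1289 and 1004 CPM, and Pgam1, the mutase before it (ENSMUSG00000011752.7), at chr19:41911923-41918660 on the plus strand, had 1361 and 908 CPM. The ranges of these 3 over the libraries overlap, so their order (means of 1160.3, 1146 and 1134 CPM) is not resolved, and all 3 lie below Aldoa in both libraries.

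A further 4 enzymes were lower than these. Tpi1, which turns 1 triose phosphate into the other (ENSMUSG00000023456.15), at chr6:124810586-124814296 on the minus strand, had 792 and 692 CPM. Pfkl, the liver-type phosphofructokinase that commits the sugar to the pathway (ENSMUSG00000020277.10), at chr10:77986947-78010083 on the minus strand, had 846 and 534 CPM. Gpi1, the isomerase of glucose-6-phosphate (ENSMUSG00000036427.5), at chr7:34201330-34230336 on the minus strand, had 696 and 488 CPM, and Pgk1, the X-linked kinase of the first ATP-making step (ENSMUSG00000062070.12), at chrX:106187100-106203699 on the plus strand, had 518 and 406 CPM. Each of these 4 overlaps its neighbour in the order of levels, and Pgk1 lies clear of Hk1 below it.

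Hk1, the hexokinase that phosphorylates glucose in most tissues, had 40 reads in replicate 1 and 61 in replicate 2, or 43.1 (30.8 to 58.7) and 46.8 (35.8 to 60.1) CPM. The gene (ENSMUSG00000037012.18) spans 111 kb of the minus strand at chr10:62268855-62379908. Its level was a small fraction of that of Gpi1, the next enzyme. Gapdh, the dehydrogenase that joins phosphate to the triose and makes NADH, is often used as a reference gene for its high level (ENSMUSG00000057666.18, chr6:125161715-125166467, minus strand). Here it had 10 and 12 reads, or 10.8 (5.17 to 19.8) and 9.21 (4.76 to 16.1) CPM, and ranked 9225 among all genes.

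**Figure D2:**
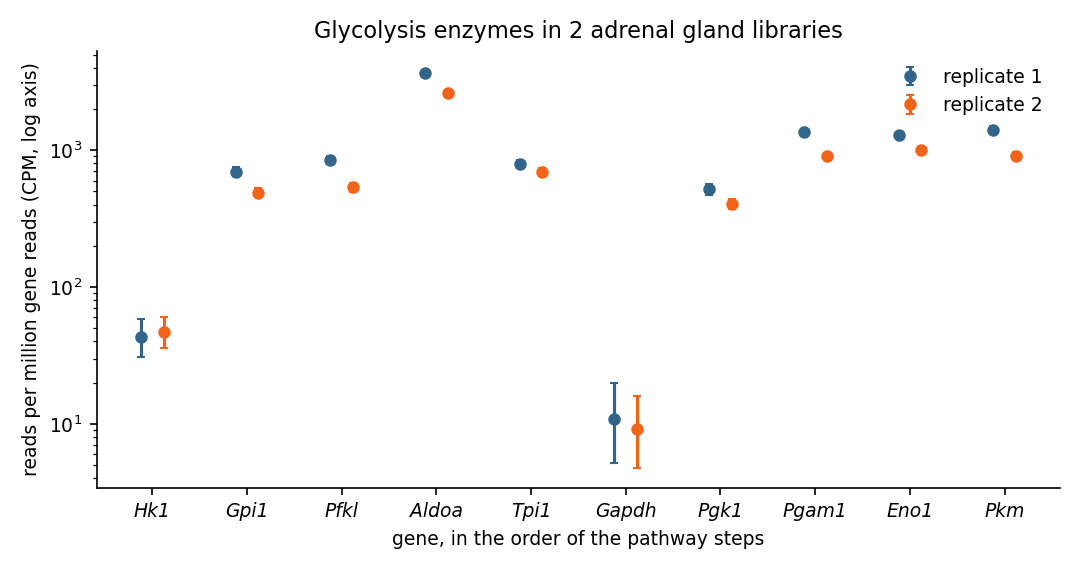
Level of each gene in CPM (log axis) in replicates 1 and 2, with exact Poisson 95% intervals as bars, in the order of the pathway. Aldoa is highest in both libraries (3687 and 2628 CPM), and Hk1 (43.1 and 46.8 CPM) and Gapdh (10.8 and 9.21 CPM) lie far below the others.

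The low count of Gapdh goes with reads on other annotated genes of nearly the same sequence. Of 70 annotated genes that matched transcript Gapdh-201 at 95% identity or more over 700 bases or more, 15 held reads, 988 in replicate 1 and 1304 in replicate 2. These make up 99.0% of the Gapdh-like reads in replicate 1 (98.2 to 99.5%) and 99.1% in replicate 2 (98.4 to 99.5%). Most of them are processed pseudogenes, intronless copies made from a spliced transcript. Gm12671, on chromosome 4, held most, with 391 and 608 reads, and its transcript is identical to that of Gapdh over all 1002 aligned bases. Gm5559 held 180 and 267, Gm12033 216 and 148, Gm7336 117 and 156, and Gm13394 58 and 69, at 99.8% to 99.9% identity. The reads on these 5 were put to single-exon models except for 1 read of Gm5559 in replicate 2.

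A stretch of 60 bases shows how close they are. It crosses the junction of exons 4 and 5 of Gapdh-201, whose parts lie at chr6:125162843-125162872 and chr6:125162679-125162708 on the minus strand, and is read here from the GENCODE M21 transcripts (mm10), 5′ to 3′. Capitals mark the 4 bases on each side of the junction. In the copies the same bases run on without an intron, at chr4:91852121-91852180 (minus strand) in Gm12671 and chr11:20335465-20335524 (minus strand) in Gm12033.
Gapdh: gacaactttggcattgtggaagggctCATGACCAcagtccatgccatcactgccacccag
Gm12671: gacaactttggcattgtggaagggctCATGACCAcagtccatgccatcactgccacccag
Gm12033: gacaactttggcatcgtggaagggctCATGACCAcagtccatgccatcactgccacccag

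Gm12671 equals Gapdh over this stretch, as do Gm5559, Gm7336 and Gm13394, and Gm12033 differs at 1 position of the 60. Neither Gapdh-201 nor Gapdh-202 was listed with a read in either library. The Gapdh reads that were listed sat on Gapdh-213, an annotated retained-intron transcript (2 and 2 reads), on Gapdh-203 (0 and 1) and on unannotated models. Because the sequences are this close, the count of Gapdh is uncertain, and how the aligner placed reads among the copies was not tested. With the copies added, the Gapdh family had 1076 CPM in replicate 1 and 1009.65 in replicate 2 (1043 ± 46.6 CPM, SD, n = 2). On the same basis the Eno1 family, described next, lay above it in both libraries. The log2 ratio of the family between the libraries was -0.09 and did not pass (adjusted p = 0.253, Fisher's exact test with the copies merged).

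Eno1 shares this feature in part. Its near-identical copy Eno1b, annotated as protein-coding on chromosome 18, held 824 and 943 reads at 99.5% identity over 1736 bases, all on single-exon models in replicate 1 and 941 of 943 in replicate 2. The processed pseudogene Gm4735 held 47 and 64. Copies took 42.1% of the Eno1-like reads in replicate 1 (40.0 to 44.3%) and 43.5% in replicate 2 (41.5 to 45.5%), and with them the Eno1 family reached 2228 and 1776 CPM. For Pgam1 the copies held 5 and 4 reads and for Pgk1 4 and 1. Gpi1 and Pkm each had 1 such copy with 0 reads, and Hk1, Pfkl, Aldoa and Tpi1 had 0 copies. The counts of Gapdh and Eno1 are therefore uncertain, while for the other 8 the copies held at most 5 reads in a library.

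**Figure D3:**
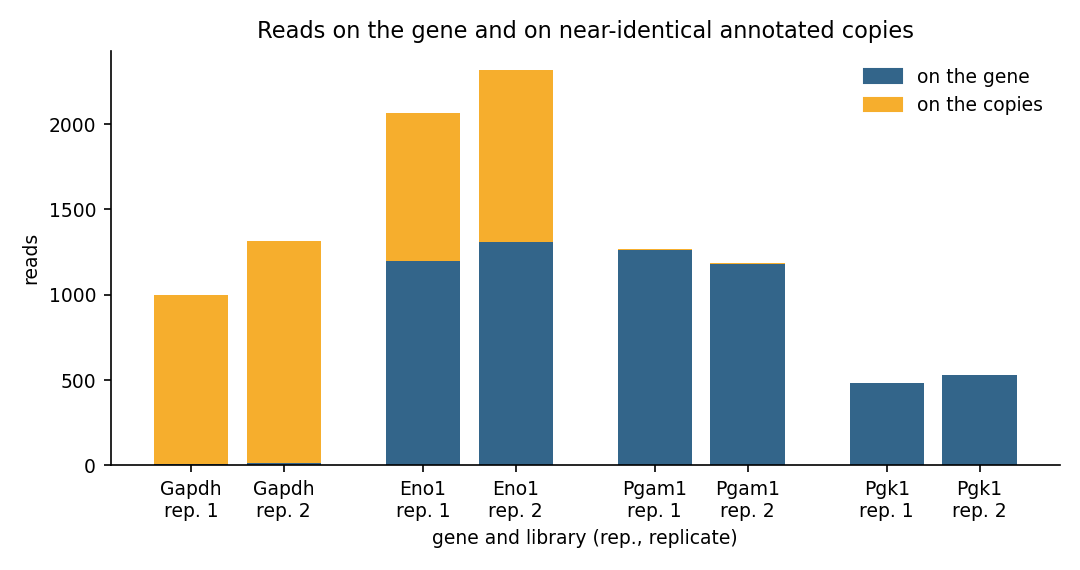
Reads on Gapdh, Eno1, Pgam1 and Pgk1 (blue) and on annotated genes of 95% identity or more over 700 bases or more (yellow, stacked) in each library. Copies hold 988 of 998 Gapdh-like reads in replicate 1 and 1304 of 1316 in replicate 2, and 871 of 2067 and 1007 of 2315 Eno1-like reads.

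Of the 10 genes, 8 were lower in replicate 2 than in replicate 1, 0 were higher, and Hk1 and Gapdh did not pass. Over all 11650 tested genes 35.1% were called, 22.2% lower and 13.0% higher. A call depends on the number of reads. The 8 had between 1010 (Pgk1) and 6846 (Aldoa) reads over both libraries, Hk1 had 101 and Gapdh 22. The share over all genes includes genes with as few as 10 reads, and a share among genes of like depth was not computed. Each gene was set against the rest of its library by Fisher's exact test (two-sided), Benjamini-Hochberg adjusted, with a threshold of 0.05. The 2 libraries belong to 1 group, so this sets the difference between libraries against counting error and gives no effect of a condition. The median log2 ratio of the 10 genes was -0.42, against -0.25 over all tested genes. The ratios of those called ran from -0.66 for Pfkl (adjusted p = 3.43e-17) and -0.63 for Pkm (3.65e-26) to -0.20 for Tpi1 (0.0225). Aldoa, with the most reads, had a log2 ratio of -0.49 (1.28e-42).

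The scaling of the libraries bears on this. TMM factors moved the median of all genes by 0.26 on the log2 scale, to 0.01, and the calls over all genes from more lower to more higher (28.4% called, 11.4% lower and 16.9% higher; with DESeq2 size factors 28.4% called, 11.6% lower and 16.9% higher). Relative to that median, 5 genes were lower in replicate 2 (Pfkl, Pkm, Pgam1, Gpi1 and Aldoa, log2 ratios -0.40 to -0.23), and Tpi1, Pgk1 and Eno1 did not pass. The log2 ratio of Tpi1 turned to 0.07. The models read in replicate 2 were shorter on average, with a mean model length per read of 2335 bases in replicate 1 and 1904 in replicate 2. Against the ratio expected from the length of a gene's main transcript, 3 of the 10 were lower (Aldoa -0.37, Pgam1 -0.34 and Pkm -0.26; adjusted p = 4.27e-24, 8.49e-08 and 6.87e-05) and 0 higher, where 23.9% of 11031 genes were called, 11% lower and 12.9% higher.

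**Figure D4:**
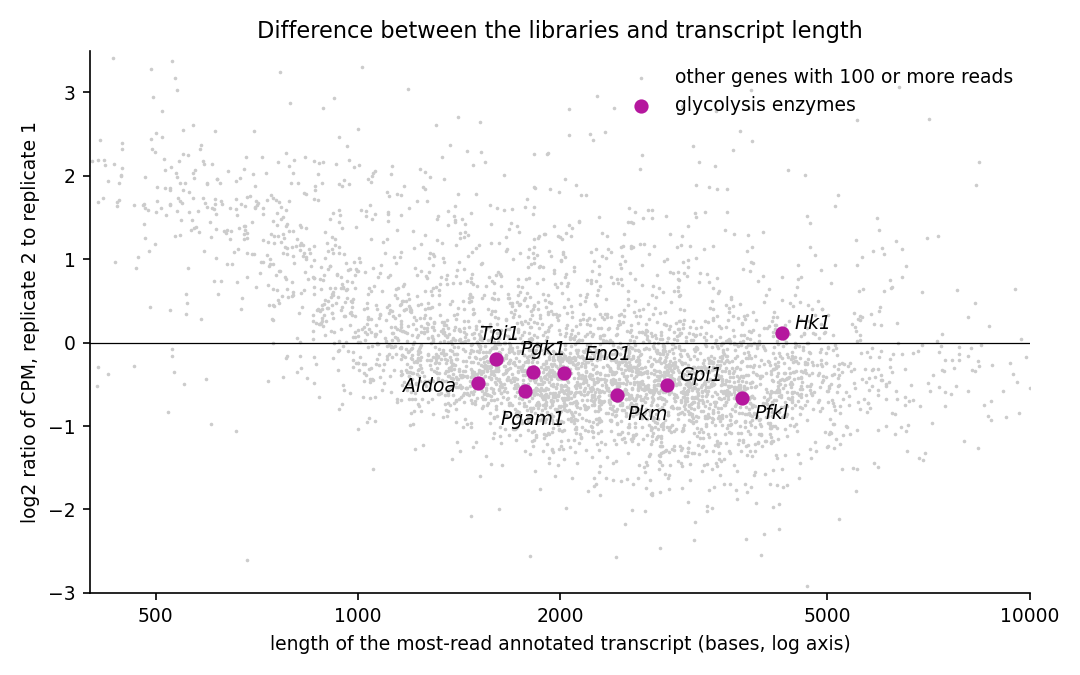
Log2 ratio of CPM between replicate 2 and replicate 1 (vertical axis) against the length of the gene's most-read annotated transcript (bases, log axis) for 9 glycolysis genes (purple) and 4139 other genes with 100 or more reads in all (grey); 52 further genes lie beyond the axes, and Gapdh, with 22 reads, is left out. Of the 9, Hk1 alone lies above 0 (0.11), and the others lie between -0.20 (Tpi1, which turns to 0.07 with TMM scaling) and -0.66 (Pfkl). The Hk1 ratio was -0.09 without Genomic models (described below) and -0.11 with annotated transcripts alone.

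Markers of other tissues moved between the libraries as well. The summed level of 6 liver markers went from 8917 to 26998 CPM (6 of 6 higher in replicate 2) and that of 8 skeletal muscle markers from 1113 to 3435 CPM (7 of 8 higher). The sum of 5 adrenal cortex markers went from 30412 to 19396 CPM and that of 5 chromaffin medulla markers from 11403 to 6053 CPM, with 4 of 5 lower in each, beside 22.2% lower and 13.0% higher over all tested genes. The fifth of each list, Cyp11a1 and Pnmt, did not pass, and with TMM scaling both were higher in replicate 2 (log2 ratios 0.27 and 0.41, adjusted p = 3.68e-30 and 7.09e-07, exact binomial test). The part of these tissues in the glycolysis levels and in the Pkm exon shares was not tested. In bulk tissue fewer cells of a type and less RNA per cell cannot be told apart.

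Isoenzymes of the same steps, read in the same libraries, show which gene held the reads of each step. Pfkl made up 85.6% of phosphofructokinase reads in replicate 1 (83.2 to 87.8%) and 86.6% in replicate 2 (84.0 to 88.8%), beside Pfkp, the platelet type, and Pfkm, the muscle type. Pkm made up 99.8% and 99.0% of pyruvate kinase reads, with Pklr, the liver and red cell gene, at 2 and 12 reads. Pgk1 held all 481 and 529 reads of its step; the testis gene Pgk2 had 0, which allows up to 3 reads, or 3.23 and 2.30 CPM. At these 3 steps the intervals of the main gene's share overlap between the libraries.

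At other steps the share of the gene described here was lower in replicate 2. Eno1 took 93.0% (91.5 to 94.3%) and 87.1% (85.3 to 88.7%) of enolase reads, with Eno1b left out, as Eno3 went from 83.0 to 139 CPM (log2 ratio 0.74, adjusted p = 6.54e-04). Pgam1 took 99.4% (98.8 to 99.7%) and 95.4% (94.1 to 96.5%), as Pgam2 went from 8.62 to 43.7 CPM (2.27, 4.03e-06). Hk1 took 46.5% of hexokinase reads in replicate 1 (35.7 to 57.6%) and 32.8% in replicate 2 (26.1 to 40.0%), intervals that overlap, while Hk2, the hexokinase of muscle and fat, went from 36.6 to 86.7 CPM (1.23, 2.76e-05). The intervals of Eno1 and Pgam1 do not overlap between the libraries. The muscle genes Eno3 and Pgam2 were higher in the library in which the muscle markers were higher, and the part of that tissue was not tested.

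The genes around the pathway moved both ways between the libraries. Of 49 genes listed, 45 were tested, 12 were lower in replicate 2, 7 were higher and 26 did not pass, beside 22.2% lower and 13.0% higher over all genes. With TMM scaling 8 were lower and 8 higher. Besides the 3 isoenzymes named above, the higher ones included Slc2a2, the glucose transporter of liver (8.62 and 26.9 CPM, adjusted p = 0.00743), and the gluconeogenic enzymes Fbp1 (224 and 476 CPM, 1.66e-21) and Pck1 (682 and 906 CPM, 7.30e-08). Lower were both lactate dehydrogenases, which turn pyruvate into lactate, Ldha (2661 and 1772 CPM, 7.53e-43) and Ldhb (810 and 683 CPM, 0.00287). Ldhb did not pass after TMM scaling, where its log2 ratio turned from -0.25 to 0.01 (0.938). Ldha made up 76.7% and 72.2% of the reads of the pair.

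The other lower genes were spread over several roles. Pfkp (99.1 and 43.7 CPM, 9.47e-06) and Bpgm, which makes 2,3-bisphosphoglycerate (72.2 and 36.1 CPM, 0.00143), are isoenzymes or side enzymes of glycolysis. Pck2, the mitochondrial PEP carboxykinase, had 70.0 and 41.4 CPM (0.0178). Epas1 and Arnt, subunits of hypoxia-inducible factors, had 50.7 and 20.7 CPM (0.00113) and 30.2 and 14.6 CPM (0.0485), while Hif1a, a further subunit, did not pass (37.7 and 27.6 CPM). Pck2 and Arnt did not pass after TMM scaling. Pfkfb2, an enzyme that makes the phosphofructokinase activator fructose-2,6-bisphosphate, had 12 and 3 reads (0.0121); its mean is under the 10 CPM above which listed genes are named, and it is named after its values were seen.

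The remaining listed genes at 10 CPM or more did not pass. Among the transporters these were Slc2a1 (33.5 CPM, mean), Slc2a3, Slc2a4, Slc16a1 (78.9 CPM) and Slc16a3, which carry glucose or lactate. Among the isoenzymes they were Pfkm, Aldoc and Eno2, between 10.5 and 41.1 CPM, and among the regulators Pfkfb1, Pfkfb3, Tigar and Adpgk, between 11.6 and 25.6 CPM. G6pc (107 CPM) and Fbp2 of gluconeogenesis and all 5 glycogen enzymes, Pgm1 (220.1 ± 3.39 CPM, SD, n = 2), Pgm2, Pygl, Pygm and Pygb, also did not pass. Of all these, Pfkfb3 was higher in replicate 2 with TMM scaling (adjusted p = 0.0209) and against the ratio expected from length (0.00740), and Pgm1 (0.0158) and Pygb (0.0349) were higher against length. Hkdc1 and Pgk2 had 0 reads in both libraries.

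Outside Pkm, 1 annotated transcript predominated in each gene with enough reads. Reads on annotated transcripts went to Aldoa-201 at 96.0% in replicate 1 and 96.3% in replicate 2, and the main transcripts of Gpi1 (Gpi1-201), Pfkl (Pfkl-201), Tpi1 (Tpi1-205), Pgk1 (Pgk1-201), Pgam1 (Pgam1-201), Eno1 (Eno1-202) and Hk1 (Hk1-202) took between 97.6% and 100% in each library. Pkm-201 took 81.0% and 77.7% of the annotated Pkm reads and Pkm-202 the rest. Of the 8 genes that could be tested, 0 changed their main share between the libraries, where 2.17% of all genes tested did. This was Fisher's exact test, adjusted over 3040 genes, and 20 such reads per library were needed. The lowest adjusted p-values among the 8 were those of Eno1 (0.158) and Pfkl (0.412), and neither passed.

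Reads on unannotated models of the genes set the libraries further apart. The deposited models fall into classes: Known is an annotated transcript, ISM a model that holds only a run of its introns, NIC a new combination of annotated splice sites, NNC one with a new splice site, and Genomic an unspliced or otherwise unmatched model within the gene. Known models took between 85.0% and 98.3% of reads for the genes other than Gapdh in replicate 1 and between 67.2% (Hk1) and 94.8% (Tpi1) in replicate 2, where over all annotated genes they took 79.8% and 73.9%. When every model counted as a form of its own, 6 of 9 genes tested changed their main share (Aldoa, Eno1, Gpi1, Pgam1, Pkm and Tpi1), where 26.8% of 6196 genes did. That share includes genes with as few as 20 reads in each library, and a call depends on the number of reads. Genomic models held 5.03% of Gpi1 reads, 3.88% of Tpi1 reads and 21.3% of Hk1 reads (13 of 61; 11.9 to 33.7%) in replicate 2, against 0, 0.272% and 5% (2 of 40; 0.611 to 16.9%) in replicate 1, where over all annotated genes they held 6.93% and 2.47%. Of the 13 Hk1 reads in replicate 2, 12 sat on 1 model deposited with a length of 1 base, at chr10:62269108. For Gpi1 the classes are not alike between the libraries: a single-exon fragment at chr7:34202159-34202549 with 8 reads was put to ISM in replicate 1, and one at chr7:34202159-34202547 with 31 reads to Genomic in replicate 2. Single-exon fragments of either class held 1.24% of Gpi1 reads in replicate 1 and 5.03% in replicate 2.

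The shift was wide in Aldoa, on many reads. Its Known models took 91.9% of reads in replicate 1 (90.9 to 92.8%) and 72.3% in replicate 2 (70.7 to 73.8%), and its ISM models 4.09% (3.45 to 4.81%) and 22.4% (21 to 23.8%). One model accounted for most of this: a 7-exon chain that ends like Aldoa-201 and lacks its first 2 introns had 62 of 3421 reads in replicate 1 (1.81%, 1.39 to 2.32%) and 579 of 3425 in replicate 2 (16.9%, 15.7 to 18.2%). Its first remaining intron is annotated as the first of Aldoa-208. The deposited 5′ end of the model is chr7:126799254 in replicate 1, the start of Aldoa-201, and chr7:126797751 in replicate 2, within the second exon of Aldoa-201, so the first exon as deposited runs unspliced through both introns in the former and through the second in the latter. The files give 1 end per model, so the ends of single reads are not known here. On Known models only, the log2 ratio of Aldoa between the libraries was -0.72, against -0.49 over all its reads.

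Another Aldoa model began upstream. Aldoa has several first exons, and a 9-exon NIC model joined a first exon that starts at chr7:126800046, whose splice to the second exon is annotated as the first intron of Aldoa-210, to the rest of the transcript. It had 58 reads in replicate 1 (1.70%, 1.29 to 2.19% of the gene) and 127 in replicate 2 (3.71%, 3.10 to 4.40%). The first intron of Aldoa-201, which is also that of Aldoa-209, was the first in 89.5% and 71.0% of spliced Aldoa reads. That of Aldoa-202, which has the same 5′ end (chr7:126799044), was the first in a further 3.31% and 2.21%. The intervals of the NIC model do not overlap between the libraries.

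In the other genes the unannotated models found in both libraries were mostly 5′-shortened forms of the main transcript with few reads. Over all 10 genes there were 308 unannotated intron chains, of which 114 were in both libraries and 22 had 5 or more reads in both. Pkm had 77 chains, 29 of them shared. Its most-read were an ISM model that lacks the first 4 introns (17 and 9 reads), a 12-exon NNC model with 1 unannotated intron that starts at chr9:59661471 (9 and 8 reads), and an ISM model that lacks the first intron (7 and 37 reads). For Pfkl they were an ISM model without the first 16 introns (19 and 18 reads), a 22-exon NNC model (6 and 8) and one without the first intron (5 and 5), and for Pgk1 a 2-exon model of the last intron (18 and 14).

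The remaining shared models were rarer. Those of Eno1 lacked 6, 3 or 5 of the first introns and had between 4 and 12 reads in a library. Those of Gpi1 lacked 1, 12 or 2 and had between 4 and 14, and those of Pgam1 were 2 ISM models (9 and 17, and 2 and 10 reads) and a NIC model (1 and 3). Tpi1 had 3 with at most 5 reads each, Pgk1 had 2 more with 2 to 5, Gapdh had 3 with 1 or 2, and the third Aldoa model lacked the first 4 introns (22 and 32 reads). Hk1 had 1 shared model, with 1 read in each library, and its other unannotated chains were found in 1 library only.

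**Figure D5:**
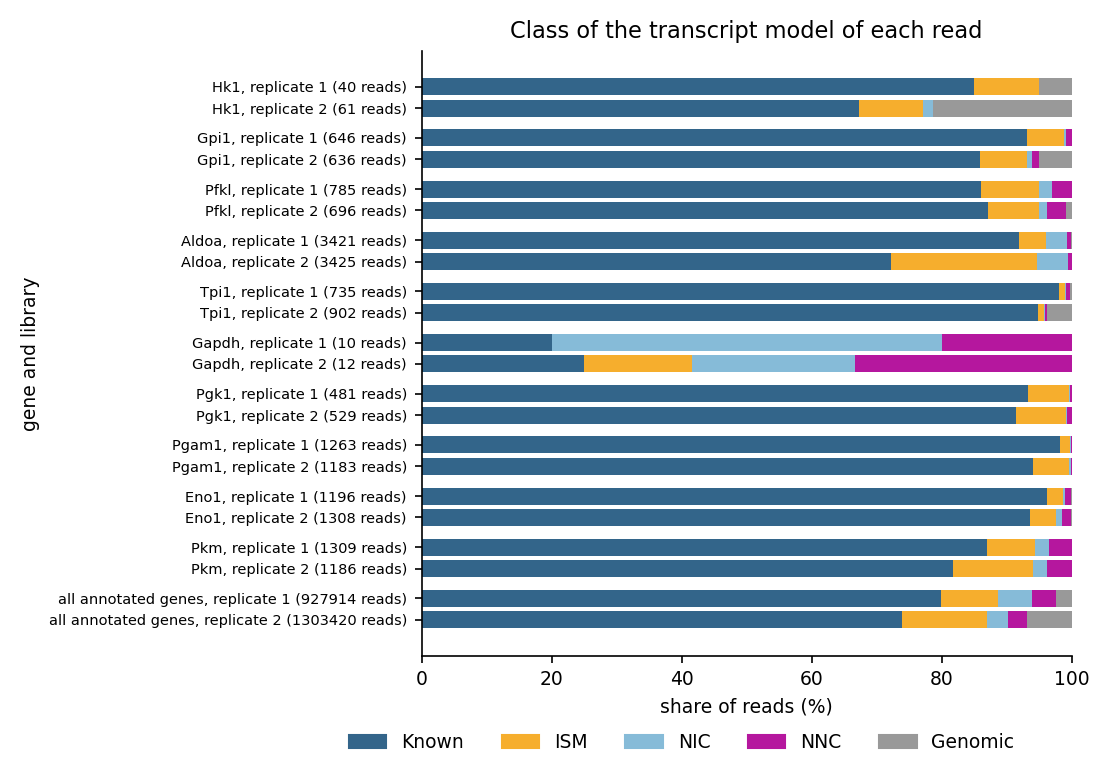
Share of each gene's reads (%, horizontal axis) in Known, ISM, NIC, NNC and Genomic models in each library, with the number of reads beside the gene and all annotated genes at the bottom. Aldoa goes from 91.9% Known in replicate 1 to 72.3% in replicate 2 as its ISM share goes from 4.09% to 22.4%, and Gapdh, with 10 and 12 reads, has few Known reads.

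Annotated genes overlap 5 of the 10 loci on the opposite strand with reads of their own. These were Fam57b at Aldoa (19 and 27 reads), Spsb2 at Tpi1 (8 and 21), Iffo1 at Gapdh (0 and 12), Hk1os at Hk1 (1 and 1) and Gm26762 at Gpi1 (0 and 1). Iffo1 had as many reads as Gapdh in replicate 2, and the others had fewer than the enzyme gene they overlap. Whether the counting used strand is not given in the sources used here. If it did not, unspliced reads from the stretch shared by such a pair cannot be told apart.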

How the data were processed

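Long-read RNA libraries of 2 adrenal gland samples were read from deposited tables of counts, the number of raw reads the authors assigned to each transcript model, with no normalization. The deposited tables and annotations also give, as other values, each model's exon number, length in bases and position (build mm10, per the labels, with GENCODE M21 transcripts, per the file headers). New models carry TALON as their source, per the file contents; its version and the aligner are not stated in the sources used. Total RNA was used, with 1 µg stated for replicate 2, and spike-ins were added; they were left out.

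Gene reads are sums over all models, and CPM divides them by the annotated-gene total (927914 and 1303420) per 1000000. A count of 0 allows 3 reads. Intervals are at 95% (Poisson or Clopper-Pearson) and cover counting error only. They and the tests treat each read as an independent molecule. Where reads are PCR copies of 1 molecule, the intervals are too narrow and the p-values too small. Libraries were compared by Fisher's exact test (scipy 1.17.1) with Benjamini-Hochberg adjustment, threshold 0.05, and 0.5 reads added before log2 ratios. Scaling alternatives used edgeR 4.0.16 (TMM) and DESeq2 1.42.0 factors with an exact binomial test, and expected ratios a lowess curve on transcript length (span 0.3; statsmodels 0.14.6). Copies were found with blastn 2.17.0. Tests were run on simulated libraries that differed only by counting error and by changes put in. The simulation held no other spread between libraries and no effect of transcript length, so it does not bear on these.

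Genes and lists were chosen with earlier results of these data known. Named were all 10 genes, annotated transcripts with 5% or more of a gene's annotated reads, the 3 most-read unannotated models present in both libraries, and listed genes with a mean of 10 CPM or more, of which 1 is counted but not reported here by name. Alternatives covered scaling, filters, model classes, transcript length, denominators, exon assignment and leaving out a library; adding near-identical copies was chosen after seeing the data. The checks on other tissues used markers of cortex, medulla, muscle, liver, brown fat (8106 and 9811 CPM, summed), red cells (1329 and 4599), kidney (5.39 and 4.60) and neurons and glia (91.6 and 105.1). Of 5 brown fat markers, 4 were higher in replicate 2 and Ucp1 was lower (4451 and 2927 CPM). Of 5 red cell markers, 4 were higher and Alas2 was lower (98.1 and 56.0 CPM). Over all tested genes 13.0% were higher and 22.2% lower. Against length, 3 brown fat markers were higher and 2 lower, and 4 red cell markers were higher and 0 lower.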

Additional observations from a re-analysis of the deposited data

Results flagged for a closer look

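An unannotated locus on the strand opposite to Pkm, at chr9:59659605-59660986 on the minus strand, within the span of the gene, held 5 reads in replicate 1 and 5 in replicate 2, more than the 3 reads that a count of 0 allows. It stands out because it lies outside the gene counts and was found in both libraries. Its level was not compared with that of Pkm.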

How the results depend on the processing

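No paired analysis was possible because there was only 1 group. Of 8 genes lower in replicate 2, 5 were so with TMM scaling, 5 with DESeq2 size factors, 3 against the length-expected ratio and 0 with a minimum of 2-fold; the count of genes higher was 0 under each alternative run. The log2 ratio of Tpi1 turned from -0.20 to 0.067 with TMM and to 0.061 with DESeq2 factors (adjusted p = 0.558 and 0.600, exact binomial test). That of Hk1 turned from 0.11 to -0.090 without Genomic models and to -0.113 with Known models only (adjusted p = 0.908 and 0.901, Fisher's exact test). Of the pathway genes, 7 in place of 12 were lower against length and 4 in place of 7 were higher with Known models only. The Pkm exon 9 difference was 3.31 points with Known models only (Fisher's exact p = 0.0656), and the mean share without replicate 1 or 2 was 23.2% or 19.5%. Counting every model as a form, 6 in place of 0 genes changed their main share. The summed level of the 10 genes was 7625 or 10654 CPM without replicate 1 or 2. With copies added, Gapdh moved from 9.99 to 1043 CPM and Eno1 from 1146 to 2002. The cause of these shifts was not tested, except that the length, 2-fold and copy settings change what is counted or called. Differences between the libraries cannot be fitted with 1 left out. Depth limits Hk1 and Gapdh: with 40 and 61 or 10 and 12 reads, small differences were not detectable.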
